A study of Bos taurus with 40 samples.

Results

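The fatty acid binding proteins are small cytosolic carriers that hold long-chain fatty acids, bile acids or related lipids inside a barrel-shaped pocket and move them between membranes, lipid droplets, mitochondria, peroxisomes and nuclear receptors. Each member is named for the organ in which it was first abundant, and several are used as markers of a differentiated cell type. The 7 genes with the symbols FABP1 to FABP7 were taken by symbol from the count tables, and they are 7 of the 13570 genes in those tables. FABP1 is the liver carrier, FABP2 the intestinal carrier, FABP3 the heart and skeletal muscle carrier, FABP4 the adipocyte carrier (also called aP2), FABP5 the epidermal carrier that is found in many cell types, FABP6 the ileal bile acid carrier, and FABP7 the brain carrier of glia and their precursors.

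RNA-seq libraries had been made from 5 cows and 5 bulls of Korean cattle, all slaughtered at over 22 months of age, with 1 library per animal for each of 4 tissues: pituitary gland, longissimus dorsi muscle, liver, and the fat of the abdomen. This gave 40 libraries in 8 groups of 5, with no treatment in any group, and mRNA was selected by poly-A before TruSeq library construction. Within each sex the animals are numbered 1 to 5. The number ties the 4 tissues of an animal together and does not pair a cow with a bull. All levels are in CPM, read counts scaled to a common library size, with TMM factors over the 40 libraries, and they are compared between tissues or sexes for the same gene only, since they are not divided by transcript length.

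The libraries held 5173092 to 19165864 reads on named genes, with a median of 10005607. The tissue labels were checked on defining genes. ALB was at 71709 CPM or more in every liver and at 105 CPM or less elsewhere, PLIN1 was at 1114 CPM or more in every fat library, MYLPF at 4486 CPM or more in every muscle, and GH1 at 6616 CPM or more in every pituitary gland. The sex labels were checked on XIST and on the Y-linked genes DDX3Y, USP9Y and ZFY. The liver library labelled bull 3 went against its label, with XIST at 1401 CPM, inside the range of the 5 cow livers, and no read on any of the 3 Y-linked genes; its nearest liver was that of cow 4 (r = 0.993 of log2 CPM), with a chi-square per degree of freedom between their counts of 15.8, against 45.8 to 236 for the other pairs of livers. The fat library of bull 5 had USP9Y at 1.78 CPM, against 28.1 CPM or more in the 4 other bulls, and XIST at 1.39 CPM. The main results that rest on these 2 libraries are also given without them.

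All 7 members had at least 1 read somewhere and were among the 13148 genes tested, but their counts were very unequal. FABP3 and FABP4 had at least 3 reads in 40 of 40 libraries, FABP5 in 39, FABP7 in 32 and FABP1 in 22, while FABP6 reached 3 reads in 8 libraries and FABP2 in 2. FABP2 and FABP6 are therefore described by their reads, and the other 5 members by level and fold change.

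**Figure D1:**
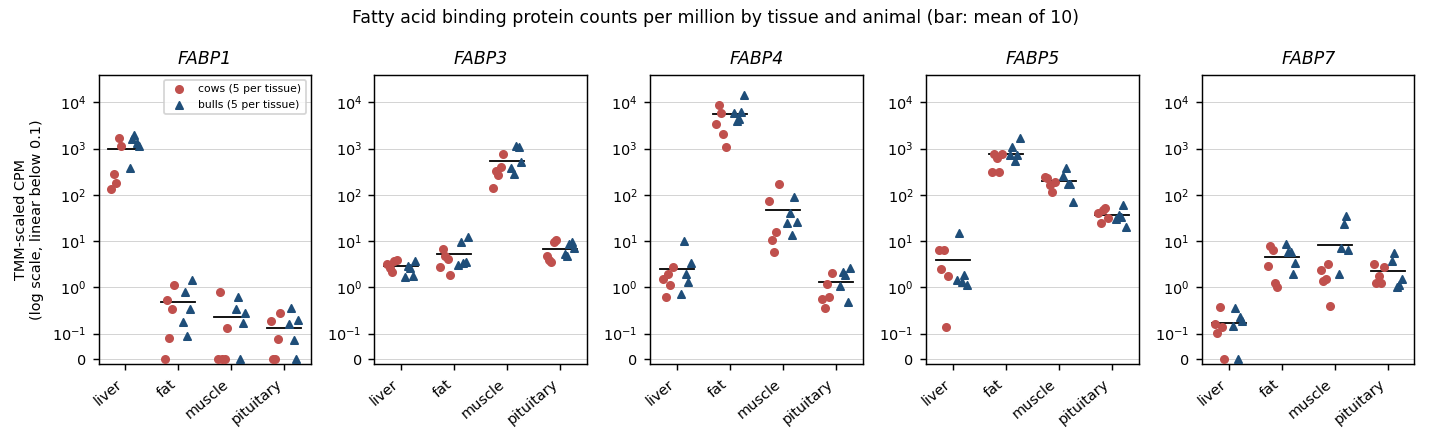
TMM-scaled CPM of 5 members (y axis, logarithmic above 0.1 and linear below) in liver, fat, muscle and pituitary gland; red circles are cows, blue triangles are bulls as labelled (5 each per tissue), and the black bar is the mean of 10 libraries. FABP1 stands in liver at 135 to 2001 CPM, FABP3 in muscle at 139 to 1156 CPM and FABP4 in fat at 1109 to 14448 CPM, while FABP7 spreads over 3 tissues.

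The first comparison asked in which tissue each member was expressed, with edgeR's quasi-likelihood test of the 6 pairs of tissues over all genes, and a gene was called highest in a tissue when it passed an adjusted p of 0.05 against each of the other 3. FABP1 was highest in liver, FABP3 in muscle, and FABP4 and FABP5 in fat, so that 4 of the 7 members had such a call. In the background, 53.4% of all genes tested had a call for some tissue, made up of 13.6% for liver, 11.4% for fat, 13% for muscle and 15.5% for the pituitary gland. FABP3, FABP5 and FABP7 were also lower in liver than in each of the 3 other tissues, a call that 13.8% of all genes had; no member was lowest in fat (7.65% of all genes), muscle (8.56%) or the pituitary gland (10.3%). The 4 highest-tissue calls were the same in every alternative fit run.

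FABP1 carries fatty acids and other ligands in hepatocytes. In the 5 cow livers it was at 135, 279, 183, 1723 and 1140 CPM for cows 1 to 5, and in the 5 livers labelled as bulls it was at 380, 1625, 2001, 1342 and 1123 CPM for bulls 1 to 5. The 10 livers fell into 2 ranges with a gap between 380 and 1123 CPM: cows 1, 2 and 3 and bull 1 were in the lower one, so both sexes were present in each. ALB in the 4 livers of the lower range was between 71709 and 146544 CPM and in the other 6 between 85080 and 178132 CPM, so these ranges overlapped.

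Outside liver FABP1 was at 1.47 CPM or less. Liver exceeded fat by 10.91 on the log2 scale (SE 0.55, adjusted p = 9.27e-19), muscle by 11.71 (SE 0.61) and pituitary gland by 12.73 (SE 0.61), and the lowest liver was above the highest library of every other tissue. The share of its summed tissue means that came from liver was 99.9%, and 0.759% of the 11462 genes that reached 1 CPM in some tissue were at least as concentrated in a single tissue. The mean in liver was 993 ± 698 CPM (SD, n = 10) and 881 ± 638 CPM without the liver labelled bull 3.

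A low FABP1 signal in fat, at 0 to 1.47 CPM with the highest values in cow 5 (1.10 CPM) and bull 5 (1.47 CPM), was called above that in the pituitary gland (log2 fold change 1.82, SE 0.64, adjusted p = 0.0167). The call was lost without bull 5 (1.60, adjusted p = 0.0601). ALB, a liver transcript, was also highest in the fat of these 2 animals, at 105 CPM in cow 5 and 86.6 CPM in bull 5 against 8.97 to 44.3 CPM in the other 8, and the summed level of the 9 hepatocyte markers in fat ranged from 79.0 to 1884 CPM. TF, 1 of these markers and named after values were seen, was alone at 24.3 to 1806 CPM in fat. The part of these markers in the FABP1 signal was not tested.

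FABP3 delivers fatty acids to the mitochondria of muscle fibres. Its muscle levels were 139, 325, 272, 402 and 774 CPM in cows 1 to 5 and 383, 279, 1156, 1073 and 502 CPM in bulls 1 to 5, so that bulls 3 and 4 were the highest and cow 1 the lowest. Muscle was above liver by 7.48 on the log2 scale (SE 0.32), above fat by 6.65 (SE 0.31) and above the pituitary gland by 6.24 (SE 0.31), the highest of these 3 adjusted p-values being 1.44e-18. FABP3 was never absent elsewhere: it was at 1.72 to 3.96 CPM in liver, 1.89 to 12.1 CPM in fat and 3.55 to 10.8 CPM in the pituitary gland.

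Among these 3 low tissues, FABP3 in liver was below that in the pituitary gland (log2 fold change -1.24, SE 0.32, adjusted p = 9.59e-04). Liver was also called below fat (-0.83, SE 0.32, adjusted p = 0.0246), but that call was lost when cow 2, bull 2, bull 5 or the fat library of bull 5 was left out, with a log2 fold change of -0.55 and an adjusted p of 0.137 in the last of these. Fat and pituitary gland were not told apart (-0.41, 95% interval -1.02 to 0.20, adjusted p = 0.25).

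FABP4 is the carrier of mature adipocytes, where it takes up fatty acids released by the lipases of the lipid droplet. Its fat levels were 3331, 8899, 5970, 2094 and 1109 CPM in cows 1 to 5 and 5879, 3869, 4466, 6145 and 14448 CPM in bulls 1 to 5. The lowest of these, in cow 5, was still above every library of the other tissues. The mean in fat was 5621 ± 3823 CPM (SD, n = 10), and 4640 ± 2372 CPM without the fat library of bull 5, which was the highest.

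Muscle held 0.837% of the FABP4 level of fat, liver 0.0451% and the pituitary gland 0.0230%. On the log2 scale fat exceeded muscle by 6.80 (SE 0.47, adjusted p = 8.91e-13) and the pituitary gland by 12.08 (SE 0.48, adjusted p = 7.34e-18). FABP4 in muscle was in turn above liver and pituitary gland, by 5.28 over the latter (SE 0.49, adjusted p = 1.53e-10). Liver and pituitary gland were not told apart (0.91, 95% interval -0.06 to 1.88, adjusted p = 0.136). In bulk tissue, fewer cells of a type and less RNA per cell cannot be told apart, which holds for all these levels. Markers of 1 tissue also had reads in the others. The 8 pituitary hormone cell markers held 0.0607% of their pituitary sum in liver, 0.0486% in fat and 0.0605% in muscle. The 9 hepatocyte markers held 0.246% of their liver sum in fat, 0.0362% in muscle and 0.0382% in the pituitary gland. The share in fat came mostly from TF, at a mean of 499 CPM there of a summed mean of 643 CPM. ALB was at means of 36.0 CPM in fat, 38.5 CPM in muscle and 16.9 CPM in the pituitary gland. The 5 adipocyte markers held 0.281% of their fat sum in liver and 0.267% in the pituitary gland, but they were unequal. In the pituitary gland their summed mean was 16.9 CPM, and PLIN1 alone was at 6.94 to 10.5 CPM. CIDEC had means of 2374 CPM in fat, 2.50 CPM in liver and 0.483 CPM in the pituitary gland. LEP had means of 879, 0.401 and 0.148 CPM in these 3 tissues. The source of such trace reads, also those of FABP4, was not tested.

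FABP5, which carries fatty acids and retinoic acid in epithelia, endothelium, macrophages and fat, was the member with the most graded profile. In fat it ranged from 315 to 1694 CPM with a median of 719, in muscle from 70.3 to 384 CPM with a median of 183, in the pituitary gland from 20.1 to 60.2 CPM with a median of 35.2 and in liver from 0.140 to 15.2 CPM with a median of 1.82. Each step in this order passed the test: fat over muscle by 1.88 on the log2 scale (SE 0.37, adjusted p = 5.11e-05, higher in 10 of 10 animals), muscle over pituitary gland by 2.40 (SE 0.38, adjusted p = 9.56e-07) and pituitary gland over liver by 3.33 (SE 0.38, adjusted p = 3.54e-09). The fat and muscle libraries overlapped, with bull 2 at 384 CPM in muscle and cows 1 and 4 at 315 and 319 CPM in fat. Muscle held 26.6% of the fat level of FABP5, against 0.837% for FABP4.

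FABP4 and FABP5 bind similar ligands and are neighbours. In the RefSeq annotation of the assembly ARS-UCD2.0 the order on chromosome 14 is PAG1, FABP5, PMP2, FABP9, FABP4, FABP12 and CCN3, while FABP1, FABP2, FABP3, FABP6 and FABP7 lie on chromosomes 11, 6, 2, 7 and 9. The ratio of FABP5 to FABP4 reads within a library does not depend on how libraries are scaled to each other. Its geometric mean over the 10 animals was lowest in fat at 0.148, followed by liver at 1.19, muscle at 6.35 and the pituitary gland at 33.0. The pituitary and liver ratios rest on few reads. FABP4 had 6 to 42 reads in a pituitary library and 5 to 56 in a liver, where FABP5 had 1 to 85. The ratio was under 1 in all 10 fat libraries, with cow 5 the highest at 0.680, and over 1 in all 10 muscle and all 10 pituitary libraries.

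The mean difference of the log2 ratio between muscle and fat was 5.42 (SE 0.68), and that between the pituitary gland and muscle was 2.38 (SE 0.59), each in the same direction in 10 of 10 animals. An exact paired permutation test over animals, two-sided, gave an adjusted p of 0.00293 for both over the 6 pairs of tissues, from an unadjusted p of 0.00195 that is the smallest 10 animals allow. Liver differed from fat in 9 of 10 animals (3.01, SE 0.64, exact permutation adjusted p = 0.00391). Without bulls 3 and 5, the 6 differences kept their signs with exact permutation adjusted p-values of 0.0117 to 0.0156, where 0.00781 is the smallest unadjusted p that 8 animals allow.

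**Figure D2:**
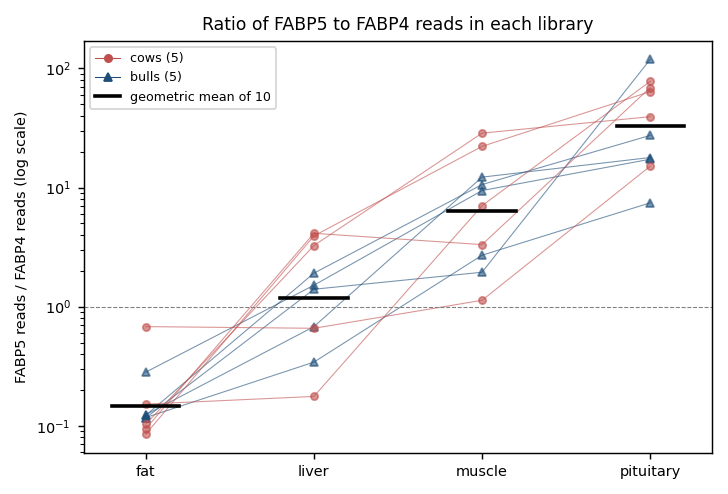
Ratio of FABP5 to FABP4 reads (y axis, logarithmic) in the 4 tissues of each animal, with lines joining the libraries of 1 animal; red circles are cows, blue triangles are bulls as labelled, and black bars are geometric means of 10. The bars rise from 0.148 in fat through 1.19 in liver and 6.35 in muscle to 33.0 in the pituitary gland.

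The genes between these neighbours, which were chosen for mention after their values were seen, were low. FABP9, a testis carrier, was at 0.154 to 3.86 CPM in fat, where it was called highest, and at 0.263 CPM or less in the other tissues. PMP2, the myelin carrier also called FABP8, had no highest call, with means of 2.45 CPM in muscle, 1.23 CPM in fat, 0.461 CPM in the pituitary gland and 0.0137 CPM in liver. FABP12 was not analysed here.

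FABP7 is best known from radial glia, astrocytes and Schwann cells. It was at 1.02 to 8.59 CPM in fat, 0.394 to 34.5 CPM in muscle and 0.993 to 5.50 CPM in the pituitary gland, and no library of liver exceeded 0.384 CPM or 3 reads. Liver was below fat by 4.68 on the log2 scale (SE 0.62, adjusted p = 3.12e-08), below muscle by 5.17 (SE 0.62, adjusted p = 4.20e-09) and below the pituitary gland by 3.73 (SE 0.62, adjusted p = 2.64e-06). The other 3 tissues gave no stable order. Muscle was called above the pituitary gland (1.44, SE 0.49, adjusted p = 0.0123), but with the animal as a replicate block the difference was 1.22 with an adjusted p of 0.0567, and without bull 4 it was 0.80 with an adjusted p of 0.145. Fat and muscle were not told apart (-0.48, 95% interval -1.44 to 0.47, adjusted p = 0.421), and the sign of this difference turned without bull 4 (0.16) and with library sizes alone (0.27).

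FABP2, which carries fatty acids in enterocytes, had 21 reads in all over 40 libraries and never more than 3 in a library. FABP6, which returns bile acids across the ileum, had no read in any of the 10 muscle libraries, 2 reads in liver, 26 in the pituitary gland and 43 in fat. Of the 43 reads in fat, 29 were in cow 3, at 2.38 CPM, and no other fat library was above 0.390 CPM. In the pituitary gland FABP6 had 1 to 6 reads in each of the 5 cows and 0 to 3 in the bulls.

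By pair of tissues, the number of the 7 members past an adjusted p of 0.05 was 6 for liver against fat, where 64.3% of all genes were called, 5 for liver against muscle (62.1%) and 5 for liver against pituitary gland (64.5%). It was 4 for fat against muscle (59.6%), 3 for fat against pituitary gland (64.6%) and 5 for muscle against pituitary gland (64%). FABP6 with its few reads was in 4 of these counts, and FABP2 in none. Most genes therefore passed in every pair, and these counts are close to that background or below it, except for liver against fat. By size, 99.9%, 97.3% and 99.1% of the summed tissue means of FABP1, FABP3 and FABP4 came from 1 tissue, against a median of 44.5% over the 11462 genes, and 5.64% or fewer of these genes were as concentrated. For FABP5 the share was 75.7% and for FABP7 54.2%.

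The genes whose log2(CPM + 1) followed a member most closely over the 40 libraries, given as a description, were mostly genes of the same tissue. For FABP1 they included CGN1 and F13B (Pearson r 0.992 and 0.989 among 10945 genes), both called highest in liver. For FABP3 they were WFIKKN2, JSRP1 and CDNF (r 0.982, 0.980 and 0.980), all highest in muscle. For FABP4 they were LEP, the leptin gene, CIDEC, which enlarges lipid droplets, and TUSC5 (r 0.990, 0.986 and 0.985), all highest in fat. FABP5 went with RFTN2, the progenitor and endothelial surface gene CD34, and MALL (r 0.953, 0.943 and 0.936), and FABP7 less closely with CDCA7L, WDR1 and GNPAT (r 0.770, 0.759 and 0.751). These correlations share the 4 tissue means among all genes. For FABP6 they were PEX11A, CPNE5 and FHIT (r 0.574, 0.568 and 0.543) and for FABP2 METTL5, CLHC1 and CEP44 (r 0.538, 0.462 and 0.449), on the few reads of these members.

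Within the tissue of its highest mean a member had other companions. FABP2, FABP6 and FABP7 had no highest-tissue call, so for them this tissue is only that of the highest mean. Over the 10 livers FABP1 went with UTP18, PROCR and AAMDC (r 0.947, 0.942 and 0.936), over the 10 muscles FABP3 with TXN2, MTFR1L and GPR180 (r 0.958, 0.941 and 0.940), and FABP7 with CCDC42, TMEM59L and SLC38A4 (r 0.943, 0.927 and 0.917). Over the 10 fat libraries FABP4 went with COMMD1, TM2D2 and PKIG (r 0.992, 0.978 and 0.973), FABP5 with POMP, MRPL51 and ENSA (r 0.979, 0.964 and 0.937) and FABP6 with AK7, PCGF2 and OS9 (r 0.909, 0.872 and 0.865). For FABP2 in the pituitary gland the 3 were C29H11orf48, WDR75 and COX7A2L (r 0.828, 0.821 and 0.819). These last 2 sets rest on few reads. FABP2 had 0 to 3 reads in a pituitary library, and FABP6 had 29 reads in the fat of cow 3 and 6 or fewer in each other fat library. Each set is the top 3 of 9907 to 10434 genes over 10 libraries, which alone gives high values.

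The spread between animals differed by member and tissue. In muscle FABP4 ranged from 5.71 to 171 CPM, with 10.5, 5.71 and 15.96 CPM in cows 2, 3 and 4, 73.1 and 171 CPM in cows 1 and 5, and 24.7, 40.7, 13.8, 88.9 and 25.98 CPM in bulls 1 to 5. Its coefficient of variation of 110% was exceeded by 2.12% of the 9908 genes with a mean of at least 1 CPM in muscle. That of FABP7 in muscle was 140%, exceeded by 0.757% of these genes, and that of FABP5 in liver was 119%, exceeded by 1.04% of 9930 genes. All these values pool cows and bulls. Counting error adds to the last 2, with 3 to 208 reads of FABP7 in a muscle and 1 to 85 of FABP5 in a liver. The 85 reads were those of bull 2, at 15.2 CPM. The coefficient of variation of FABP3 in liver was 29.0%, exceeded by 61.2% of genes there, and that of FABP5 in the pituitary gland was 33.2%, exceeded by 29.9% of genes. Cow 5 had the lowest FABP4 of all animals in fat and the highest in muscle.

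Adipocytes between muscle fibres also express FABP4, and its level in muscle was set beside 5 adipocyte markers (PLIN1, CIDEA, CIDEC, LEP and LIPE). All 5 had reads in every muscle library, and their summed level ran from 37.3 CPM in cow 2 to 637 CPM in cow 5, against 5318 CPM or more in every fat library. FABP4 rose with their mean log2 level over the 10 muscles (Pearson r = 0.87, permutation p = 6.70e-04, 0.00737 adjusted over the 11 relations computed between members and marker lists; Spearman rho = 0.84, permutation p adjusted 0.0415). With the mean of each sex removed r was 0.87. Without the 2 animals farthest from the median of the markers r was 0.68 with a permutation p of 0.0564, so the relation rests in part on those animals.

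The other 10 relations did not pass after adjustment. FABP4 went with the same markers in the pituitary gland with r = 0.66 (permutation p = 0.0424, adjusted 0.159), and 0.82 with a pseudocount of 0.1 CPM in place of 1. FABP3 and the 6 slow fibre markers in muscle gave r = 0.62 (permutation p = 0.0598, adjusted 0.159), and FABP5 and the adipocyte markers in muscle r = -0.12 (permutation p = 0.745). No value is given for FABP1 and the hepatocyte markers, since FABP1 fell into 2 separate ranges in liver. Within a sex there were 5 animals, too few for a correlation.

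**Figure D3:**
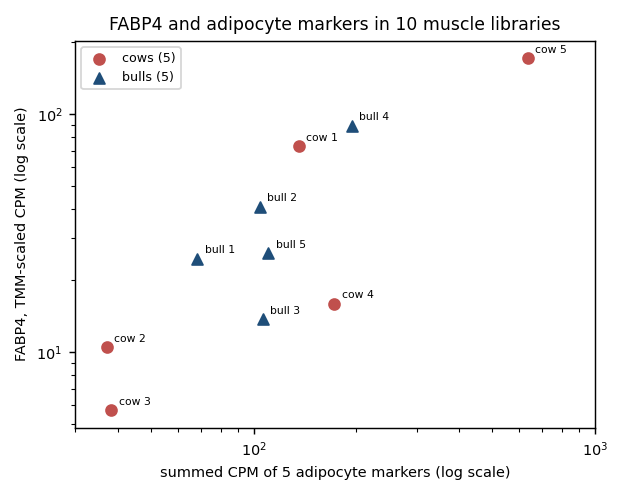
FABP4 level (y axis, TMM-scaled CPM, logarithmic) against the summed level of 5 adipocyte markers (x axis, TMM-scaled CPM, logarithmic) in the 10 muscle libraries, each point named by its animal; red circles are cows and blue triangles are bulls. Cow 5 is the highest on both axes (637 CPM and 171 CPM), and cows 2 and 3 are the lowest on both.

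The second comparison asked whether a member differed between cows and bulls within a tissue, with the likelihood ratio test of the M1 model (sex as the only term) in edgeR. Of the 7 members, 1 passed an adjusted p of 0.05, namely FABP7 in muscle, where 0.517% of all genes were called. That background is itself unsteady: 68 genes were called in muscle, 7 by the quasi-likelihood test, and 25 (without bull 3) to 553 (without cow 4) with 1 library left out. In liver (0.175% of genes), fat (0.114%) and pituitary gland (0.745%) 0 of 7 members were called by this test or by DESeq2. The quasi-likelihood test also called 0 members, but it called 1 gene of all genes in liver, 3 in fat and 12 in the pituitary gland. By the likelihood ratio test, 0 of 7 members were under an unadjusted p of 0.05 in liver, where 980 of 13148 genes were. FABP6 had an unadjusted p of 0.0172 in fat and 0.0291 in the pituitary gland by that test (adjusted p = 0.614 and 0.462), on few reads. Over the 5 members described by level the median log2 fold change of bulls to cows was 0.63 in fat, 0.54 in muscle, 0.33 in liver and 0.31 in the pituitary gland. Over all genes the medians of these 4 tissues were -0.06, -0.04, 0.00 and 0.00. The median of the members was 0.27 in fat without the library of bull 5 and 0.55 in liver without the one labelled bull 3.

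FABP7 in muscle was at 2.34, 1.38, 1.52, 3.25 and 0.394 CPM in cows 1 to 5, from 3 to 22 reads, and at 1.91, 6.93, 23.8, 34.5 and 6.36 CPM in bulls 1 to 5, from 11 to 208 reads. Bulls 3 and 4 were far above all others, bulls 2 and 5 were above every cow, and bull 1 lay within the range of the cows, so the groups overlapped. The log2 fold change of bulls to cows was 3.05 (SE 0.66, adjusted p = 0.00858, edgeR likelihood ratio test). The call was not stable: the quasi-likelihood test gave an adjusted p of 0.237 for the same difference, and it was lost without cow 2 (2.98, adjusted p = 0.0613), bull 3 (2.79, adjusted p = 0.0674) or bull 4 (2.45, adjusted p = 0.0679). It held in 11 of the 15 alternatives, with adjusted p-values from 1.79e-04 to 0.237.

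**Figure D4:**
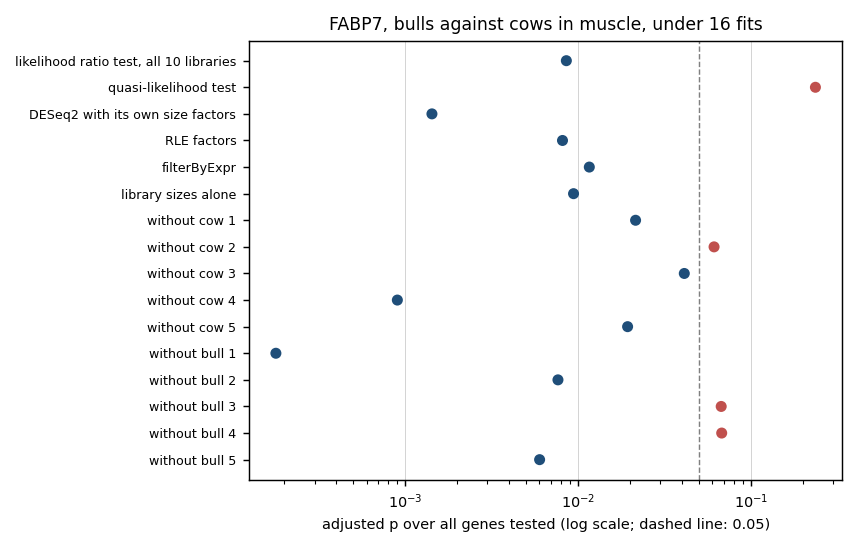
Adjusted p of FABP7 for bulls against cows in muscle (x axis, logarithmic, dashed line at 0.05) under the reported fit and its 15 alternatives (y axis), blue where it was under 0.05 and red where it was not. The quasi-likelihood test and the fits without cow 2, bull 3 or bull 4 lie to the right of the line, between 0.0613 and 0.237.

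Marker lists were read in the same muscles, beside the 0.517% of all genes called there. The 6 slow fibre markers summed to 8779 to 70024 CPM in cows and 29498 to 82482 CPM in bulls, with bulls 3 and 4 the highest of all 10 at 82482 and 74443 CPM. TNNC1 and MYL2 of that list were called higher in bulls (log2 fold changes 1.81 and 1.86), and MYH1, a fast myosin, was called lower (-5.20). Among Schwann cell markers, MBP and SOX10, picked after values were seen, summed to 27.0 to 48.6 CPM in cows and 16.6 to 35.2 CPM in bulls, with neither called, and bull 4, the highest for FABP7, was the lowest of the 10 at 16.6 CPM. The glial list with S100B and AQP4 summed to 66.2 to 169 CPM in cows and 134 to 284 CPM in bulls, with none of its 5 genes called. The macrophage list summed to 236 to 388 CPM in cows and 61.4 to 248 CPM in bulls, with CD14 of its 6 genes called lower (-1.40). The part of fibre type or of these cells in the FABP7 difference was not tested.

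In the other tissues FABP7 gave no such difference, with log2 fold changes of 0.26 in liver (0.48 without the library labelled bull 3), 0.36 in fat and 0.31 in the pituitary gland. A gene past the threshold in muscle alone is not thereby shown to differ between tissues, so the interaction of sex and tissue was tested over all 40 libraries. It was called for 44 genes, 0.335% of those tested, and for 0 of 7 members (edgeR likelihood ratio test; also 0 by DESeq2). The quasi-likelihood test called 0 of all 13148 genes for the interaction, with 922 at an unadjusted p under 0.05, so its 0 members say nothing about them. FABP7 had an unadjusted p of 0.00545 and an adjusted p of 0.232 by the likelihood ratio test.

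**Figure D5:**
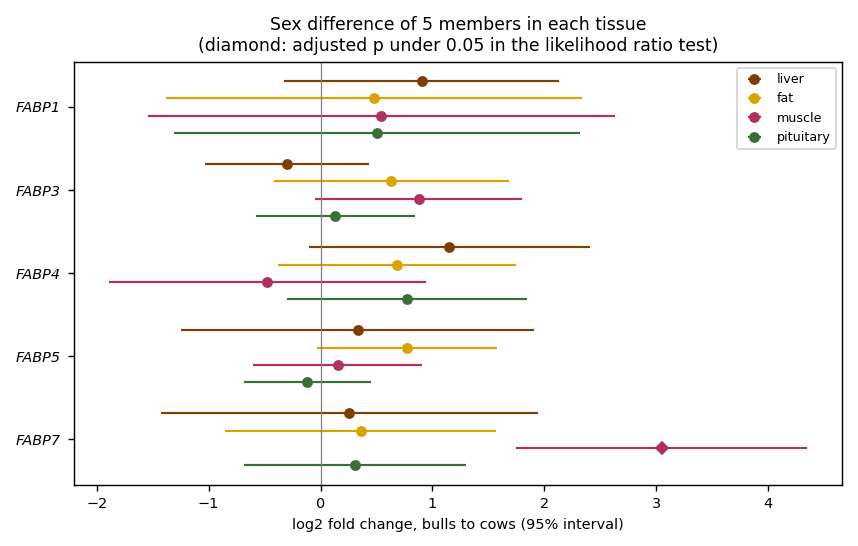
Log2 fold change of bulls to cows (x axis, bars show the 95% interval) for 5 members (y axis) in liver, fat, muscle and pituitary gland, 5 bulls against 5 cows in each; the diamond marks an adjusted p under 0.05. FABP7 in muscle, at 3.05, is the 1 diamond, and the intervals of the other 19 differences all include 0.

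Of the 20 differences between the sexes in these 5 members, 17 were above 0. They share animals, so they are not independent, and the share of all genes above 0 is not given. With 1 library left out, FABP1 in fat (-0.19, bull 5) and FABP5 in liver (-1.24, bull 2) and muscle (-0.15, bull 2) fell below 0. So did FABP1, FABP3 and FABP7 in the pituitary gland (-0.0794, -0.0225 and -0.19). FABP4 in muscle (0.53) and FABP5 in the pituitary gland (0.0361) rose above 0. Of the 20, 19 were not called, with log2 fold changes from -0.48 to 1.15 and adjusted p-values of 0.503 or more. The 95% intervals of these 19 reached from -1.89 to 2.63. In no tissue did the 5 bulls and 5 cows separate without overlap for any of the 7 members, which 1.65% of all genes did in muscle, 1.34% in the pituitary gland, 1.29% in fat and 0.548% in liver. FABP5 in fat was at 315 to 759 CPM in cows and 553 to 1694 CPM in bulls (0.77, 95% interval -0.03 to 1.58, adjusted p = 0.745), and 0.47 without the fat library of bull 5. FABP3 in muscle was at 139 to 774 CPM in cows and 279 to 1156 CPM in bulls (0.88, 95% interval -0.05 to 1.80, adjusted p = 0.503).

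FABP1 in liver was 0.90 higher on the log2 scale in the libraries labelled as bulls (95% interval -0.33 to 2.13, adjusted p = 0.878), and 0.69 without the liver labelled bull 3. FABP4 in fat gave 0.68 (95% interval -0.38 to 1.75, adjusted p = 0.846), and 0.24 without the fat library of bull 5. FABP4 in liver, at 0.612 to 2.73 CPM in cows and 0.715 to 10.02 CPM in bulls, gave 1.15 (95% interval -0.11 to 2.41, adjusted p = 0.763), and 0.24 without bull 2.

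With the 4 tissues in 1 model (M2, sex and tissue as terms), 1.69% of all genes were called for sex and 0 of 7 members were, by the likelihood ratio test, the quasi-likelihood test or DESeq2. This model takes the 4 libraries of an animal as independent: it called 222 genes, against 8 genes and 0 members in limma voom with the animal as a replicate block, and 57 to 714 genes with 1 animal left out (cow 1 and cow 5). FABP7 had a log2 fold change of 1.03 (SE 0.37, adjusted p = 0.147, likelihood ratio test). FABP6 had an adjusted p of 0.110 by that test, on 71 reads in all. FABP1, FABP3, FABP4 and FABP5 had log2 fold changes from 0.27 to 0.65 with adjusted p-values of 0.431 to 0.639.

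The carriers work between uptake at the membrane and esterification or oxidation, and genes of those steps were counted in the same way. Members of these lists named beyond the 3 of highest mean level were chosen after their values were seen. Of 8 genes of fatty acid release and uptake, 4 were highest in liver, 3 in fat and 1 in muscle. CD36, the fatty acid translocase, CAV1, the caveolar coat gene, and LPL, lipoprotein lipase, were called highest in fat, with means of 2544, 1710 and 1505 CPM there, and SLC27A1, the transporter FATP1, was the 1 in muscle. None of the 8 was highest in the pituitary gland and 3 were lowest there.

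Of 5 genes of acyl-CoA synthesis and binding, 2 were highest in liver, 1 in fat and 1 in the pituitary gland. ACSL1, an acyl-CoA synthetase, was called highest in liver at a mean of 1658 CPM, DBI, the acyl-CoA binding protein, in fat at 693 CPM, and ACSL3 had no call. Of 8 genes of mitochondrial oxidation, 4 were highest in liver and 1, CPT1B, in muscle, while 7 of the 8 were lowest in the pituitary gland, a call that 10.3% of all genes had. ACADVL, HADHA and HADHB, enzymes of the oxidation spiral, had no highest call. Of 7 lipid-sensing receptors and partners, HNF4A was highest in liver at 950 CPM, PPARG and RXRG in fat, and RXRB and PPARGC1A in muscle. PPARA had no call, with 110 CPM in liver and 89.4 CPM in muscle.

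Among 7 other genes of the same protein family (PMP2, FABP9 and the retinoid carriers), 3 were highest in liver, 1 in fat and 2 in the pituitary gland. RBP5, a cellular retinol carrier, was called in liver at a mean of 75.6 CPM, and CRABP2, a retinoic acid carrier, in the pituitary gland at 39.9 CPM, with CRABP1 beside it. None of the genes in these 5 lists was called for sex in M1 or M2.

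The marker lists served to describe the tissues. All 9 hepatocyte markers, led by ALB, FGB and FGA, were highest in liver; all 5 adipocyte markers, led by CIDEC, PLIN1 and LIPE, in fat; all 7 fast (MYH2, TNNT3 and ATP2A1 leading) and all 6 slow fibre markers (MYH7, MYL2 and TNNT1 leading) in muscle; and all 8 pituitary hormone cell markers, led by PRL, GH1 and POMC, in the pituitary gland. Of the cell types shared by tissues, 5 of 8 endothelial markers, VWF and PECAM1 among them, were highest in fat and 1, KDR, in liver, 2 of 6 macrophage markers (CD163, CSF1R and CD68 leading) in liver, and 2 of 5 epithelial markers (KRT18, KRT8 and KRT19 leading) in each of liver and pituitary gland. Of the 5 glial markers (S100B, SLC1A3 and AQP4 leading), 2 were highest in fat and 2 in the pituitary gland. The list as a whole did not single out glia, since S100B had a mean of 602 CPM in fat and AQP4 one of 37.5 CPM in muscle. Sex calls in these lists outside muscle were MYH2, MYH7, MYL2 and CGA in the pituitary gland by M1, with log2 fold changes of bulls to cows of 2.34, 1.18, 3.11 and 1.84, and TNNC1 (1.40), MYL2 (2.27) and CGA, also higher in bulls, by M2. The fibre genes were low in the pituitary gland. There the 6 slow fibre markers summed to 7.25 to 34.6 CPM, on average 0.0380% of the muscle level. The 7 fast markers summed to 9.57 to 48.9 CPM there, on average 0.0255% of the muscle level. The source of these reads was not tested. TNNT3 was called for the interaction.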

How the data were processed

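The authors trimmed reads with Trimmomatic, aligned them to the cattle assembly bosTau7 (Bowtie2 and TopHat2 are named in their notes), and counted reads per gene with HTSeq, and the deposited tables hold raw counts per gene symbol, 1 table per library. Rows without a gene name held 0.114 to 2.69% of the reads and were left out, as were reads outside genes, 33.2 to 54.0% of the counted reads. Only reads with a unique alignment were counted, per the study's methods, so reads that fit several similar members equally are missing from all of them. Strand was not stated.

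From these counts, 13148 genes with at least 1 read were fitted in edgeR 4.0.16 (R 4.3.3) with TMM factors (0.662 to 0.912 in liver, 0.963 to 1.46 in fat, 0.518 to 0.912 in muscle, 1.18 to 1.71 in the pituitary gland). Tissue contrasts used sex and tissue as terms and the quasi-likelihood test over 40 libraries; M1, M2 and the interaction used the likelihood ratio test of the study. P-values were adjusted by Benjamini-Hochberg over all genes at a threshold of 0.05, and the fits were tested on simulated data. CPM is TMM-scaled. Fold changes carry a prior count of 0.125; standard errors and 95% intervals are Wald values from the fit. Correlations used log2(CPM + 1) and 100000 resamples, and the ratio of FABP5 to FABP4 used reads plus 0.5. At the depth of these libraries 3 reads are 0.157 to 0.580 CPM before scaling, and intervals on reads cover counting error only.

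Alternatives were the other edgeR test, DESeq2 1.42.0, RLE factors, filterByExpr, the animal as a block, each animal or library left out, and, chosen after the data were seen, library sizes alone, the ratio test and its repeat without bulls 3 and 5. The 4 tissues of an animal carry 1 animal identifier in the labels, and the block pairs libraries by this identifier. The liver labelled bull 3 went against its sex label, so its pairing with the other tissues of bull 3 is in doubt. The deviations of libraries with the same identifier from their group means correlated by -0.35 to 0.58 (median 0.21), above 0.1 in 41 of 60 pairs. Nothing pairs cows with bulls. With 1 library per animal and tissue, the p-values of M1, the ratio test and the correlations measure the spread between these animals. The tissue contrasts, M2 and the interaction took the 40 libraries as independent, except where the animal was a block.

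The members and gene lists were chosen with earlier results of these data known. Named beside the 7 members are, for each list, the 3 detected genes of highest mean CPM and any gene with a sex call. For each member with 3 reads in some library, the 3 genes of highest Pearson r with a mean of at least 1 CPM are also named. This was done over 40 libraries and in the tissue of the member's highest mean. A few genes that this rule or the marker lists name are not reported here. Listed genes without a row in the tables, ADIPOQ among them, were not analysed here, and PLIN1 took its place in the check of fat. Names and gene order come from RefSeq (ARS-UCD2.0), in which all 7 members were matched by symbol. No coordinates of that assembly are given.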

Additional observations from a re-analysis of the deposited data

Results flagged for a closer look

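Each of the 5 members described by level was examined in the 8 groups of 5 libraries for a sample whose gap to its nearest neighbour exceeded 0.71 of the group's range of log2(CPM + 1) (Dixon's criterion). Of these 40 groups, 2 had one, and chance gives about 1 in 20. On unlogged CPM 4 groups had one, the others being FABP4 in the fat of bull 5 (14448 CPM against 6145 CPM or less in the other bulls) and in the liver of bull 2. FABP5 in the liver of bull 2 was at 15.2 CPM (85 reads) against 1.13 to 1.87 CPM in the other 4 livers labelled as bulls. FABP4 was also highest there, at 10.02 CPM, and so were the 6 slow fibre markers, which summed to 67.1 CPM against 10.2 CPM or less in the other 9 livers. The 7 fast fibre markers summed to 101.8 CPM against 38.9 CPM or less, and GH1 was at 36.2 CPM against 31.5 CPM or less. The 5 adipocyte markers summed to 23.3 CPM, against 13.4 to 18.7 CPM in the other livers labelled as bulls. Cow 2 was higher for them, at 24.9 CPM, and PLIN1 at 7.16 CPM was inside the range of the other livers. The source of these reads was not tested. FABP1 in the muscle of cow 2 was at 0.778 CPM (9 reads) against 0 to 0.131 CPM in the other 4 cows.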

How the results depend on the processing

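The 4 highest-tissue calls, and the signs of the called tissue differences of the 5 members described by level, stayed under every alternative run; those of FABP6 were not followed. The count of members with a sex call in muscle, 1, fell to 0 with the quasi-likelihood test, and was 0 to 1 when single libraries were left out. With the animal as a replicate block FABP7 in muscle against pituitary gland lost its call (1.22), as it did with library sizes alone (0.55). The block changed no other call of the 5 members described by level, and limma voom with the block called 0 members and 8 genes, in place of 222, for sex over the 4 tissues. Counts of sex calls over all genes moved most: the quasi-likelihood test called 1, 3, 7 and 12 genes in liver, fat, muscle and pituitary gland, in place of 23, 15, 68 and 98, and with 1 library left out the counts were 10 to 187, 5 to 22, 25 to 553 and 54 to 231. Over the 4 tissues the count was 77 by the quasi-likelihood test and 717 with library sizes alone, and that of the interaction, 44, was 9 to 197 with 1 animal left out.

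Correlations weakened or turned as follows: FABP4 with adipocyte markers in muscle was 0.68 without the 2 farthest animals, and in the pituitary gland 0.58 with the mean of each sex removed; without the 2 farthest animals it was -0.31 in liver, FABP5 with endothelial markers in the pituitary gland 0.0192 and with macrophage markers in fat -0.25. Among differences that were not called, signs turned for FABP7 in fat against muscle (0.27 with library sizes alone, 0.16 without bull 4; -0.84 to 0.16 over animals left out) and for FABP5 between the sexes in muscle (-0.0512 with library sizes alone). Over libraries left out, the log2 fold changes of bulls to cows that turned ranged from -1.24 to 0.69 for FABP5 in liver, -0.19 to 1.22 for FABP1 in fat, -1.05 to 0.53 for FABP4 and -0.15 to 0.37 for FABP5 in muscle, -0.0794 to 1.13 for FABP1, -0.0225 to 0.40 for FABP3, -0.38 to 0.0361 for FABP5 and -0.19 to 0.52 for FABP7 in the pituitary gland, and -0.14 to 0.39 for FABP5 over the 4 tissues. The cause was not tested.

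Library sizes alone in place of TMM moved the median log2 difference of all genes by up to -0.86, for muscle against pituitary gland, and by 0.73 for fat against muscle, and FABP1 in fat against muscle was then called (1.53, adjusted p = 0.0403, edgeR). Without cow 5 FABP7 in fat was called above the pituitary gland (1.17, adjusted p = 0.0300). Depth limits FABP2 and FABP6, and 5 animals a sex leave wide intervals.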
